A study of Mus musculus with 10 samples.

Results

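The 35 genes described here encode the proteins that carry glucose into the muscle fibre, break it down to lactate, export the lactate, and build and degrade glycogen. They were chosen by symbol from a list of these functions, and where a symbol had several RefSeq transcripts the transcript with the largest count over all libraries was used. All 35 were found among 24063 symbols, and all 35 had enough reads to be tested. RNA was sequenced from quadriceps of 10 wild-type C57BL mice aged 17 to 20 months, 5 per group. The Control animals drank facility water, and the 1C-MIM animals drank the same water with a supplement of that name for 1 to 3 months. What the supplement contains was not stated in the labels. In both groups the tibialis anterior had been injured, and the quadriceps that gave the RNA had not. Sex, litter, cage and collection time were not stated either. Each library is named as its own animal, and n is the number of animals.

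In skeletal muscle, contraction can outrun the supply of oxygen, and ATP then comes from glycolysis, which is fed by blood glucose and by the fibre's own glycogen. Glycogen phosphorylase, switched on by phosphorylase kinase when calcium or adrenaline signals arrive, releases glucose phosphate from glycogen, and glycogen synthase stores it. Fast glycolytic fibres, which make up most of the mouse quadriceps, hold large amounts of these enzymes. Several steps have a muscle paralog (Pfkm, Pgam2, Eno3) and a paralog that other cells use (Pfkp, Pgam1, Eno1).

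After 1 transcript per symbol was kept, the libraries held 28521254 to 31771296 counts, and the 35 genes together took 6.26 to 6.91% of them. Levels are counts per 1000000 (CPM) after TMM scaling, and those of different genes are compared per kilobase of transcript. The 13 myofibre markers, among them Acta1, Ckm and Ttn, were all tested, and 4 were higher (Actn3, Ttn, Myh1 and Myh4) and 0 lower. Over all genes tested, 9.78% were higher and 11.8% lower, the shares beside which each marker count here is to be read. Fold changes also followed transcript length, as described below, and the marker counts were not corrected for it. The 13 summed to 178263 to 201649 CPM in Control and 197278 to 226350 CPM in 1C-MIM. Markers of other cells also differed: 7 of 9 macrophage genes were lower in 1C-MIM (summed CPM 184 to 343 in Control, 112 to 168 in 1C-MIM) and 4 of 6 endothelial genes were higher (147 to 210 and 214 to 243). The macrophage genes Mrc1 (log2 fold change -0.22) and Cd163 (0.19) did not pass. Of 9 slow fibre genes, 4 were lower (136 to 205 and 116 to 143 CPM). Of 6 fibro-adipogenic genes, 4 were lower (772 to 1124 and 539 to 854 CPM). Lum, Col1a1, Col3a1 and Thy1 were the lower ones, while Pdgfra (log2 fold change 0.03) and Dcn (0.07) did not pass. Of 9 fast glycolytic fibre genes 3 were higher (175698 to 200616 and 192085 to 218460 CPM). Those 3 were Myh4, Actn3 and Atp2a1; the other 6 had negative fold changes that did not pass, and the median over the 9 was -0.12. Control 1 stood apart in neuronal genes, with Tubb3 at 10.3 CPM there and 0.567 to 1.68 CPM in the other libraries. None of these macrophage, endothelial or slow fibre genes was at 0 in any library, and their part in the results was not tested. In tissue RNA, fewer cells of a type and less RNA per cell cannot be told apart.

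In 1C-MIM quadriceps, 3 glycogen genes rose and 6 genes of the later steps of glycolysis and of lactate handling fell. The other 26 did not pass the test. The 3 that rose were Pygm and Phkb, of glycogen breakdown, and Ppp1r3a, of a phosphatase subunit that activates glycogen synthase. The 6 that fell were Tpi1, Pgk1, Pgam2, Eno1, Ldha and Slc16a3. Once each library's trend with transcript length was removed, the calls of Tpi1, Pgk1, Ldha and Ppp1r3a were lost. The changes were small, from 0.771-fold for Eno1 to 1.44-fold for Ppp1r3a. Groups did not overlap for 2 genes with higher values in 1C-MIM (Pygm and Phkb) and 4 with lower values (Tpi1, Pgam2, Eno1 and Pfkp, which was not called), against 6.6 and 7.98% of all genes. Over all 13880 genes tested, 9.78% were called higher and 11.8% lower, together 21.6% (edgeR quasi-likelihood test, Benjamini-Hochberg adjusted p under 0.05). Counts of 3 and 6 among 35 genes lie close to those shares, so the number of calls is not a result about this pathway. The median log2 fold change was 0.04 for the 35 genes and 0.00090 for all genes tested. With library totals alone as scaling, which lowers the median of all genes by 0.07, 1 gene of the 35 was higher and 10 were lower.

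**Figure D1:**
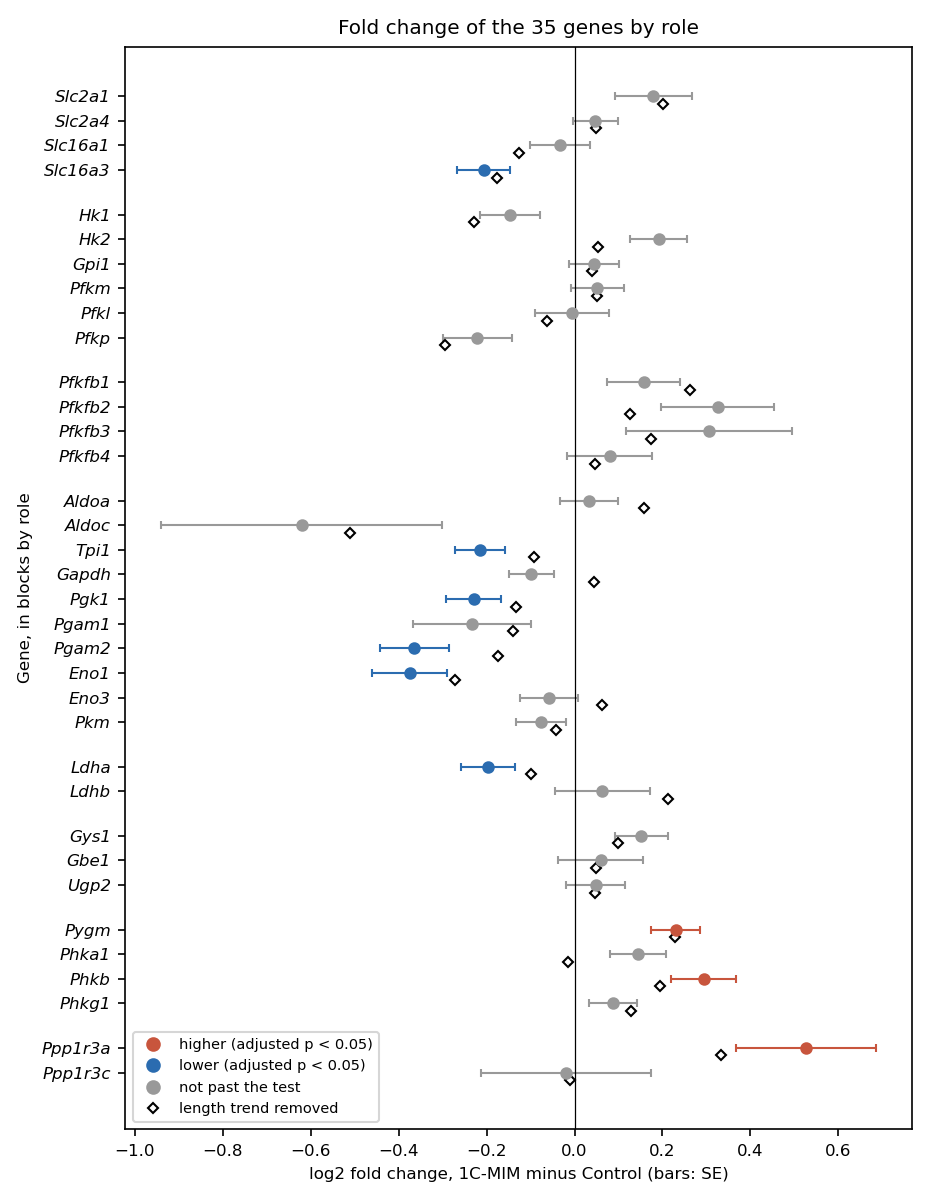
Log2 fold change of 1C-MIM over Control (x axis, bars are SE, n = 5 per group) for the 35 genes (y axis, in blocks by role); filled circles are coloured by the test, and open diamonds show the value once each library's trend with transcript length is removed. The block from aldolase to pyruvate holds 4 genes called lower, and the glycogen breakdown block lies to the right of 0 with 2 genes called higher.

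Per kilobase, the muscle paralogs led in Control muscle. The aldolase gene Aldoa was the most abundant with a mean of 12623 CPM per kilobase, followed by the enolase gene Eno3 (4736), Pygm (3307) and the phosphoglycerate mutase gene Pgam2 (2432). Pfkm (1882), Gapdh (1830), Ldha (1826), Pkm (1819) and Tpi1 (1701) came next and lay within a narrow range. At the other end were Aldoc (0.411), Pgam1 (1.55), Pfkfb2 (1.59), Pfkp (2.48), Hk1 (2.85), Pfkl (3.29) and Slc2a1 (3.43). Except for Pfkfb2, which is prominent in heart, these are paralogs better known from brain, blood cells or liver. Several glycolytic genes, among them Gapdh, Pgk1, Pgam1, Tpi1 and Ldha, have processed pseudogene copies in the mouse genome, and how reads matching several places were counted is unknown here, so these levels are uncertain. The counts of Eno1 and of its copy Eno1b agreed within 1% in every library, and reads of the pair cannot be told apart.

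Glucose enters the fibre through GLUT4 (Slc2a4), which insulin and contraction bring to the surface, and through the basal carrier GLUT1 (Slc2a1). Neither passed the test. Slc2a4 stood at 575 ± 26.6 CPM in Control and 594 ± 18.7 CPM in 1C-MIM (means with SD over 5 animals; 0.05 on the log2 scale, SE 0.05), and Slc2a1 at 8.83 ± 0.966 and 10 ± 0.614 CPM (0.18, SE 0.09, edgeR adjusted p = 0.151). Hexokinase, which traps glucose as its phosphate, is mostly Hk2 in muscle. Hk2 was 387, 413, 360, 360 and 349 CPM in Control 1 to 5 and 409, 481, 401, 428 and 417 CPM in 1C-MIM 1 to 5. All 5 1C-MIM values lay above the Control mean, but Control 2 overlapped them, and the difference missed the threshold (log2 fold change 0.19, SE 0.07, edgeR adjusted p = 0.0511). It passed with DESeq2 (0.02), limma-voom (0.0489), a filter of 1 CPM (0.0472), DESeq2 size factors (0.0429) and without Control 2 or without 1C-MIM 1 (0.0258 and 0.0409). With the length trend removed the log2 fold change of Hk2 was 0.05 (adjusted p = 0.464).

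At the next steps, the isomerase gene Gpi1 had log2 fold change 0.04 (SE 0.06). Among the phosphofructokinase genes, whose enzyme is the main control point of glycolysis, the muscle form Pfkm was at 0.05 (SE 0.06), the liver form Pfkl at -0.01 (SE 0.08) and the platelet form Pfkp at -0.22 (SE 0.08, edgeR adjusted p = 0.0572). Pfkp was 9.65, 9.16, 10.8, 9.3 and 11.2 CPM in Control 1 to 5 and 8.53, 8.55, 8.87, 8.24 and 8.8 CPM in 1C-MIM 1 to 5. The groups of Pfkp did not overlap, as in 14.6% of all genes tested (either direction), although it missed the threshold. It passed without Control 2 (adjusted p = 0.0428) and once the length trend was taken out (log2 fold change -0.29, SE 0.08, adjusted p = 0.0278). The 4 Pfkfb genes encode enzymes that make and degrade the strongest activator of phosphofructokinase. All 4 had positive fold changes, from 0.08 (SE 0.10) for Pfkfb4 to 0.33 (SE 0.13) for Pfkfb2, and 0 of 4 passed the test. Pfkfb3, the inducible form, varied more within a group than between groups. It was 309, 141, 212, 213 and 205 CPM in Control 1 to 5 and 190, 294, 320, 289 and 243 CPM in 1C-MIM 1 to 5, and its adjusted p was 0.259 with all libraries and 0.0548 without Control 1, the highest Control.

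From aldolase to pyruvate, 4 of 10 genes fell, 0 rose and 6 did not pass; their median log2 fold change was -0.22. All 10 transcripts are shorter than 2500 bases, a limit chosen after values were seen. Among all tested genes up to that length 19.3% were lower, with a median of -0.11. The phosphoglycerate mutase gene Pgam2 is largely restricted to muscle. It was 2092, 2139, 2048, 2156 and 2583 CPM in Control 1 to 5 and 1905, 1554, 1693, 1589 and 1822 CPM in 1C-MIM 1 to 5. Every 1C-MIM library lay below every Control library (log2 fold change -0.36, SE 0.08, edgeR adjusted p = 0.00698). Control 5 was well above the other Controls, and without it the log2 fold change was -0.29 (adjusted p = 0.0127). With the length trend removed it was -0.17 (adjusted p = 0.00932). Eno1, the broadly expressed enolase, was 74.7, 58.6, 63.5, 61.6 and 78.1 CPM in Control 1 to 5 and 58, 47.2, 51.4, 49.6 and 53.2 CPM in 1C-MIM 1 to 5, again without overlap. It fell by 0.38 on the log2 scale (SE 0.09, edgeR adjusted p = 0.00949). The calls of Pgam2 and Eno1 held when each of the 10 libraries was left out.

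Triosephosphate isomerase (Tpi1) joins the pair of products of aldolase into a single stream. Tpi1 was 2783, 2710, 2503, 2766 and 2851 CPM in Control 1 to 5 and 2493, 2199, 2330, 2268 and 2447 CPM in 1C-MIM 1 to 5, with Control 3 only just above 1C-MIM 1. It fell by 0.21 (SE 0.06, edgeR adjusted p = 0.0188). Phosphoglycerate kinase (Pgk1) makes the earliest ATP that glycolysis gains. Pgk1 was 250, 252.3, 220, 244 and 263 CPM in Control 1 to 5 and 231, 195, 212, 198 and 212 CPM in 1C-MIM 1 to 5, and Control 3 lay below 1C-MIM 1. It fell by 0.23 (SE 0.06, edgeR adjusted p = 0.0215). Both calls were lost without 1C-MIM 3 (adjusted p = 0.0532 for Tpi1 and 0.0521 for Pgk1), without 1C-MIM 4 (0.0639 and 0.072) and with the length trend removed (log2 fold change -0.09 and -0.13, adjusted p = 0.139 and 0.0696). That of Pgk1 was also lost without Control 5 (0.0507), and both were lost without Control 1 and Control 5 together (0.08 and 0.0875).

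The most abundant enzymes of this stretch did not pass the test. Aldoa had log2 fold change 0.03 (SE 0.07), and -0.04 with library totals as scaling. Eno3, the muscle enolase, was at -0.06 (SE 0.07), pyruvate kinase (Pkm) at -0.08 (SE 0.06) and Gapdh, often used as a reference gene, at -0.10 (SE 0.05, edgeR adjusted p = 0.175). With library totals as scaling, Gapdh was called lower (-0.17, adjusted p = 0.0131). Gapdh stood at 2602 ± 100.6 CPM in Control and 2431 ± 77.2 CPM in 1C-MIM, and its fold change was 0.04 with the length trend removed. Pgam1 (2.83 ± 0.442 and 2.41 ± 0.29 CPM) and Aldoc (0.7 ± 0.356 and 0.45 ± 0.0914 CPM) were measured at low counts. Aldoc, an aldolase of brain and glia, had 9 to 38 reads per library and its highest value, 1.3 CPM, in Control 1. Its log2 fold change was -0.62 (SE 0.32, edgeR adjusted p = 0.172) with Control 1 and -0.28 (adjusted p = 0.444) without it. Control 1 is also the library with the highest Tubb3, and the part of nerve RNA in the Aldoc value was not tested.

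Lactate dehydrogenase turns pyruvate into lactate and renews the NAD that glycolysis needs. Ldha, the subunit of fast muscle, was 3315, 3299, 3122, 3278 and 3563 CPM in Control 1 to 5 and 3221, 2701, 2782, 2804 and 2959 CPM in 1C-MIM 1 to 5. Apart from 1C-MIM 1, every 1C-MIM library was below every Control library, and Ldha fell by 0.20 (SE 0.06, edgeR adjusted p = 0.0355). Ldhb, the subunit of heart and oxidative fibres, was 102 ± 16.1 CPM in Control and 106 ± 10.9 CPM in 1C-MIM (log2 fold change 0.06, SE 0.11). Slc16a3 encodes MCT4, the carrier that exports lactate from fast fibres. It was 281.3, 342, 328, 329 and 318 CPM in Control 1 to 5 and 260, 291, 286, 271 and 277 CPM in 1C-MIM 1 to 5, and Control 1 lay within the 1C-MIM range. Slc16a3 fell by 0.21 (SE 0.06, edgeR adjusted p = 0.0277), whereas Slc16a1, which encodes the carrier MCT1 of oxidative cells, was at -0.03 (SE 0.07). The calls of Ldha and Slc16a3 were weakly held. That of Ldha was lost without any of Control 1, 2, 4 or 5 or 1C-MIM 2, 3, 4 or 5 (adjusted p = 0.0505 to 0.104), with no filter (0.0582) and with the length trend removed (-0.10, 0.11). That of Slc16a3 was lost without any of Control 2, 3 or 4 or 1C-MIM 1, 3, 4 or 5 (0.0501 to 0.0794) but not with the length trend removed (-0.18, 0.0391).

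**Figure D2:**
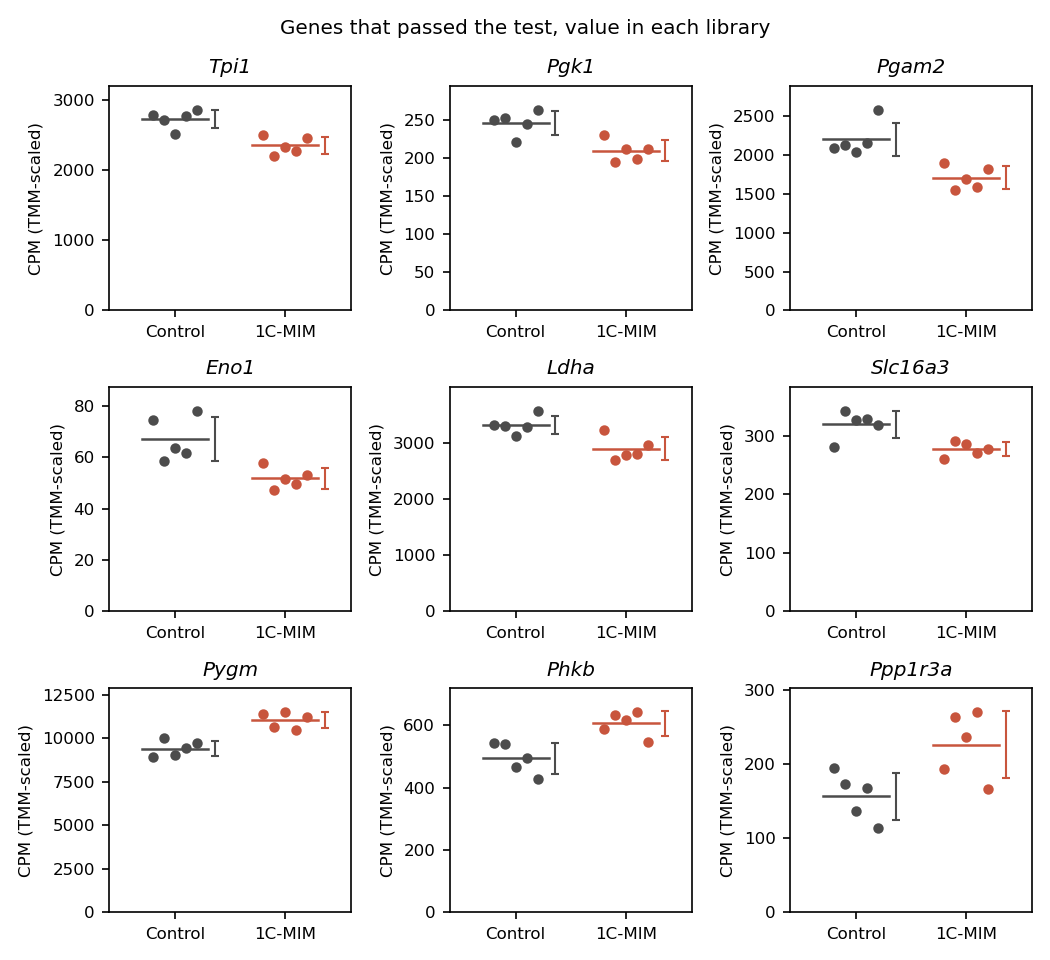
Each panel plots 1 gene that passed the test, in CPM scaled with TMM (y axis, from 0), for the 5 Control and 5 1C-MIM libraries in order of their number; points are libraries, horizontal lines are group means and bars are SD. Tpi1, Pgam2, Eno1, Pygm and Phkb show no overlap between the groups, and the other 4 overlap.

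Among the genes of glycogen breakdown, 2 of 4 rose, against 9.78% of all genes and 15.2% of those with transcripts over 2500 bases, where 3 of the 4 lie. All 4 fold changes were positive (median 0.19), except that of Phka1 with the length trend removed. Pygm, the muscle glycogen phosphorylase that is deficient in McArdle disease, was 8893, 9980, 9045, 9407 and 9694 CPM in Control 1 to 5 and 11369, 10640, 11498, 10440 and 11198 CPM in 1C-MIM 1 to 5. The groups of Pygm did not overlap, and it rose 1.17-fold (log2 fold change 0.23, SE 0.06, edgeR adjusted p = 0.0119). Phosphorylase kinase, which activates phosphorylase, has subunits from Phka1 and Phkb (regulatory) and Phkg1 (catalytic), besides calmodulin. Phkb was 544, 538, 466, 494 and 428 CPM in Control 1 to 5 and 589, 633, 617, 642 and 546 CPM in 1C-MIM 1 to 5. The lowest 1C-MIM value of Phkb lay just above the highest Control value, and it rose 1.23-fold (0.29 on the log2 scale, SE 0.07, edgeR adjusted p = 0.014). The calls of Pygm and Phkb held when each library was left out and with the length trend removed (log2 fold change 0.23 and 0.20, adjusted p = 0.00469 and 0.0214). With library totals as scaling that of Phkb was lost (0.22, adjusted p = 0.0536). Phka1 stood at 1270 ± 80.5 CPM in Control and 1404 ± 100 CPM in 1C-MIM (0.14, SE 0.06, edgeR adjusted p = 0.115), and Phkg1 at 713 ± 29.7 and 758 ± 37.7 CPM (0.09, SE 0.05, adjusted p = 0.251). With the length trend removed Phkg1 was called higher (0.13, adjusted p = 0.0448) and Phka1 was at -0.01.

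Ppp1r3a and Ppp1r3c encode subunits that bring protein phosphatase to the glycogen particle, where it activates glycogen synthase and inactivates phosphorylase. Ppp1r3a, the striated muscle form, was 195, 173, 137, 167 and 114 CPM in Control 1 to 5 and 193, 264, 237, 271 and 167 CPM in 1C-MIM 1 to 5. Its groups overlapped, with 1C-MIM 1 and 1C-MIM 5 inside the Control range. It rose 1.44-fold (log2 fold change 0.53, SE 0.16, edgeR adjusted p = 0.0357). No other of the 9 called genes had a larger fold change. That call was lost without any of Control 3, 4 or 5 or 1C-MIM 2, 3 or 4 (adjusted p = 0.0563 to 0.087), with no filter (0.0618), with library totals as scaling (0.0674) and with the length trend removed (0.33, adjusted p = 0.0694). Ppp1r3c was 707, 336, 370, 416 and 462 CPM in Control 1 to 5 and 582, 352, 441, 436 and 450 CPM in 1C-MIM 1 to 5. Control 1 was the highest, and the log2 fold change was -0.02 (SE 0.19) with it and 0.19 without it (adjusted p = 0.302).

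The 3 genes of glycogen synthesis did not pass. Glycogen synthase (Gys1) was 550, 688, 579, 603 and 594 CPM in Control 1 to 5 and 659, 664, 687, 660 and 680 CPM in 1C-MIM 1 to 5. Control 2 matched the highest 1C-MIM library, and the log2 fold change was 0.15 (SE 0.06, edgeR adjusted p = 0.0856) with it and 0.20 without it (adjusted p = 0.0171). Ugp2, which makes the sugar nucleotide that the synthase uses, was at 0.05 (SE 0.07), and the branching enzyme gene Gbe1 at 0.06 (SE 0.10).

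Fold changes over the whole table followed transcript length, and the 35 genes lie on both sides of that trend. The split at 2500 bases was chosen after values were seen. It falls between the longest gene that fell and the shortest that rose, so the clean division of the called genes partly reflects that choice. Of 5926 tested genes with transcripts of up to 2500 bases, 19.3% were lower and 2.53% higher, with a median log2 fold change of -0.11. The 15 genes of the pathway in this class had a median of -0.20, with 6 lower and 0 higher. Of 7954 longer transcripts, 15.2% were higher and 6.27% lower, with a median of 0.09. The 20 pathway genes in this class had a median of 0.07, with 3 higher and 0 lower. Transcripts of the 6 genes that fell measured 906 bases (Pgam2) to 2493 bases (Slc16a3), and those of the 3 that rose measured 2844 bases (Pygm), 4617 bases (Phkb) and 7120 bases (Ppp1r3a). Once the length trend of each library was removed, 6.95% of all genes were called higher and 9.31% lower, and 5 of the 35 were higher and 5 lower. Pygm, Phkb, Pgam2, Eno1 and Slc16a3 were called, with the same sign, by both fits. Pfkfb1 (log2 fold change 0.26, adjusted p = 0.0181), Aldoa (0.16, 0.0277) and Phkg1 were called higher, and Hk1 (-0.23, 0.0355) and Pfkp lower, with the trend removed and not otherwise. Whether the trend arose in the tissue or in the making of the libraries was not tested.

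**Figure D3:**
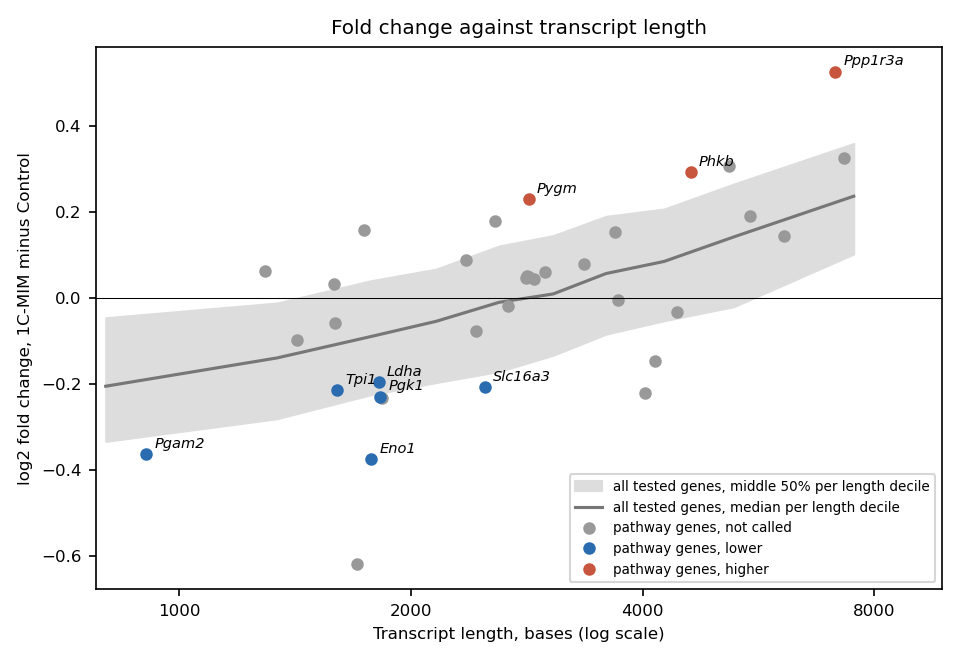
Log2 fold change of 1C-MIM over Control (y axis) against transcript length in bases (x axis, log scale); circles are the 35 genes, the grey line is the median of all tested genes in each length decile and the band their middle 50%. Genes called lower lie among the short transcripts and genes called higher among the longer ones, and of the called genes Tpi1 and Ldha lie inside the band, Pgk1 at its edge and the other 6 outside it.

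A ratio of paralogs within a library does not depend on how libraries are scaled. Of 9 such ratios, taken per kilobase and adjusted together, 3 passed an exact permutation test over every assignment of 5 libraries to each group. The ratio of Hk1 to Hk2 was 0.042, 0.0361, 0.0434, 0.0427 and 0.0469 in Control 1 to 5 and 0.0324, 0.0314, 0.0354, 0.0313 and 0.0359 in 1C-MIM 1 to 5. It was 0.79-fold in 1C-MIM (log2 difference -0.34, two-sided exact permutation p = 0.00794, the smallest that the test can give, adjusted p = 0.0357), with Hk2 taking the larger part in each library. The ratio of Eno3 to Eno1 was 109, 146, 123, 137 and 116 in Control 1 to 5 and 155, 157, 156, 153 and 157 in 1C-MIM 1 to 5. The 1C-MIM libraries were nearly alike and all above the Controls (log2 difference 0.31, exact permutation p = 0.00794, adjusted p = 0.0357). The ratio of Pfkm to Pfkp was 705, 873, 696, 816 and 719 in Control 1 to 5 and 938, 933, 836, 926 and 944 in 1C-MIM 1 to 5, with Control 2 above the lowest 1C-MIM library (log2 difference 0.27, exact permutation p = 0.0159, adjusted p = 0.0476). In these 3 pairs the paralog of muscle fibres gained on the paralog that other cells use, and with the length trend removed the log2 differences were of like size (-0.28, 0.33 and 0.34, adjusted p = 0.0357 for each). Among the ratios that did not pass, the form more abundant in this muscle also gained in Aldoa to Aldoc (0.56) and Pfkm to Pfkl (0.06). It lost in Ldha to Ldhb (-0.27), Slc16a3 to Slc16a1 (-0.17), Slc2a4 to Slc2a1 (-0.14) and Pgam2 to Pgam1 (-0.13). The macrophage genes, 7 of 9 lower, may be set beside the ratios, but their part in them was not tested. Leaving out a single library ended the calls of Hk1/Hk2 and Eno3/Eno1 for 1C-MIM 1, 2, 4 and 5 (adjusted p = 0.0714). It ended that of Pfkm/Pfkp for Control 1, 3 and 5 and 1C-MIM 1, 2, 4 and 5 (0.0536 to 0.0952). The log2 differences stayed between 0.24 and 0.40 in size. For Hk1/Hk2 and Eno3/Eno1 the unadjusted exact permutation p was 0.0159 whichever 1C-MIM library was left out, 1C-MIM 3 included. With 126 assignments left, their adjusted p differed between these runs only through the p-values of the other ratios.

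The ratio of Ldha to Ldhb, which is high in fast fibres, was 31.5, 20.2, 20.4, 21.4 and 25.3 in Control 1 to 5 and 19.3, 21.2, 18.2, 19.6 and 18.7 in 1C-MIM 1 to 5. Control 1 and Control 5 were the highest, the groups overlapped, and the difference missed the threshold after adjustment (log2 difference -0.27, exact permutation p = 0.0317, adjusted p = 0.0714). It passed with the length trend removed (0.0357), without Control 2 (0.0357) and without Control 3 (0.0476), and was -0.16 without Control 1 (0.1). The ratios of Slc16a3 to Slc16a1 (log2 difference -0.17, exact permutation p = 0.0556, adjusted p = 0.1) and Slc2a4 to Slc2a1 (-0.14, p = 0.0714, adjusted p = 0.107) did not pass. That of Slc16a3 to Slc16a1 passed without 1C-MIM 3 (-0.22, adjusted p = 0.0357) and was -0.05 with the length trend removed (0.67). The ratios of Aldoa to Aldoc (0.56, adjusted p = 0.194; 0.28 without Control 1), Pgam2 to Pgam1 (-0.13, 0.482) and Pfkm to Pfkl (0.06, 0.5) did not pass the same exact test. The fold changes of Pgam2 and Pgam1 were -0.36 and -0.23, and Pgam1 rests on 64 to 105 reads per library.

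**Figure D4:**
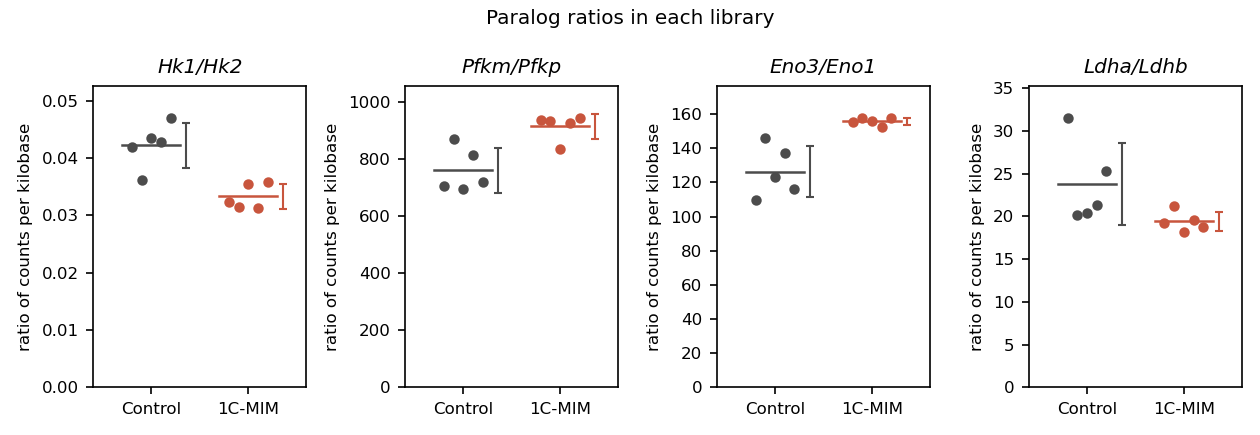
Ratio of counts per kilobase of 4 paralog pairs (y axis, from 0) in the 5 Control and 5 1C-MIM libraries, in order of their number; points are libraries, horizontal lines are group means and bars are SD. The Eno3/Eno1 points of 1C-MIM lie between 153 and 157, above all Controls, and the highest Ldha/Ldhb point, 31.5, is Control 1.

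Beyond the 35 genes, 96 others of glucose, pyruvate and glycogen metabolism and its regulators were listed, of which 86 were tested. Of these, 16 were higher and 5 lower, against 9.78 and 11.8% of all genes. With the length trend removed 10 were higher and 4 lower, against 6.95 and 9.31% of all genes. Among 27 other glycogen genes, 5 were higher and 2 lower, and with the length trend removed 2 were higher and 1 lower. The strongest decrease was in Stbd1, a receptor that brings glycogen to the autophagosome. Stbd1 averaged 98.6 ± 6.18 CPM in Control and 61.6 ± 4.19 CPM in 1C-MIM (-0.68 on the log2 scale, SE 0.06, edgeR adjusted p = 4.69e-05) with no overlap between groups, and -0.60 with the length trend removed. Gsk3b, a kinase that inactivates glycogen synthase, rose by 0.50 (SE 0.10, adjusted p = 0.00415), also without overlap. Of 13 other genes of glucose entry and glycolysis, 3 were higher and 1 lower, and with the length trend removed 1 was higher and 1 lower. The glucose carrier gene Slc2a3 went from 20.3 ± 1.29 to 26.1 ± 2.36 CPM (0.36, SE 0.07, adjusted p = 0.00548). Tbc1d1 (0.63, SE 0.16) and Tbc1d4 (0.44, SE 0.11), brakes on the movement of GLUT4 to the surface, rose too (adjusted p = 0.0156 and 0.0148), but not past the threshold with the length trend removed (0.0707 and 0.0671).

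Of 20 genes at the pyruvate branch, 3 were higher and 2 lower, against 9.78 and 11.8% of all genes. Ldhd, a mitochondrial enzyme that oxidises the other mirror form of lactate, averaged 61.3 ± 2.55 CPM in Control and 48.8 ± 0.981 CPM in 1C-MIM and fell (-0.33 on the log2 scale, SE 0.05, edgeR adjusted p = 0.00112). Pdk3, a minor pyruvate dehydrogenase kinase of muscle, fell by 0.75 (SE 0.18, adjusted p = 0.0109) at a low level of 1.62 CPM in Control. The more abundant kinase genes Pdk4 (652 ± 117 CPM in Control, 842 ± 50.1 CPM in 1C-MIM) and Pdk1 (59.2 ± 3.71 and 68.8 ± 2.98 CPM), named after their values were seen, rose by 0.37 (SE 0.10) and 0.22 (SE 0.06; edgeR adjusted p = 0.0254 and 0.0192). The call of Pdk4 was lost without Control 5, 1C-MIM 3 or 1C-MIM 4 (0.0527 to 0.0622), and that of Pdk1 without 1C-MIM 4 (0.0547) and with the length trend removed (0.09, 0.184). Of 10 shuttle and gluconeogenic genes 1 was higher, Gpd2, the mitochondrial glycerol phosphate dehydrogenase that takes up electrons from cytosolic NADH (0.32, SE 0.06, adjusted p = 0.00245). Among 16 regulators 4 were higher and 0 lower, and with the length trend removed 2 were higher. Epas1, the hypoxia-inducible factor abundant in endothelium, was at 0.45 (SE 0.09, edgeR adjusted p = 0.00496). Mlxip, the glucose-sensing factor MondoA, was at 0.32 (SE 0.07, edgeR adjusted p = 0.00871). Of the 6 endothelial genes 4 were higher, while Pecam1 (log2 fold change 0.22) and Cldn5 (-0.12) did not pass. Their part in the value of Epas1 was not tested. Mlxip was not called with the length trend removed (0.13, adjusted p = 0.132).

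To show the regulatory sequence next to genes that moved, the 250 bases before the RefSeq start are printed for Pgam2 and Tpi1, which fell, and for Pygm and Ppp1r3a, which rose; each has a single start in the table. They come from RefSeq on build GRCm38.p6 and are written 5′ to 3′ on the strand of the gene. Capitals mark matches to ACGTG, the core bound by hypoxia-inducible factors, to CACGTG, the E-box of clock and glucose-sensing factors, which contains ACGTG, to CAGCTG, an E-box of myogenic factors, and to the MEF2 consensus, on either strand.
Pgam2, chr11:5803797-5804046, minus strand: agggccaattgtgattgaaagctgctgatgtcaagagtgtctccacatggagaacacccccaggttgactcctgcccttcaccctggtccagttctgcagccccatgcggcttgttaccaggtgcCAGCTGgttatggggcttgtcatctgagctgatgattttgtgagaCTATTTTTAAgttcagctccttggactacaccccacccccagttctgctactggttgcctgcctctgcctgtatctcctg
Tpi1, chr6:124814159-124814408, minus strand: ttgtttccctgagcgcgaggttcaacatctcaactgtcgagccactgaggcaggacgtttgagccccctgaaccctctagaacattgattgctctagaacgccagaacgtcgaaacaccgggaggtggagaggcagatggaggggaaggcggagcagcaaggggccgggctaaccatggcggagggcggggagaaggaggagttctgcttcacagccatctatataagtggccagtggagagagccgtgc
Pygm, chr19:6384158-6384407, plus strand: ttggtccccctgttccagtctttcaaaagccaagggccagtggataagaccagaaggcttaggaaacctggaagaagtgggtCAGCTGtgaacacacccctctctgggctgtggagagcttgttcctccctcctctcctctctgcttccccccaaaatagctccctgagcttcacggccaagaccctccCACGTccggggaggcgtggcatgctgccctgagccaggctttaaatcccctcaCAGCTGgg
Ppp1r3a, chr6:14755275-14755524, minus strand: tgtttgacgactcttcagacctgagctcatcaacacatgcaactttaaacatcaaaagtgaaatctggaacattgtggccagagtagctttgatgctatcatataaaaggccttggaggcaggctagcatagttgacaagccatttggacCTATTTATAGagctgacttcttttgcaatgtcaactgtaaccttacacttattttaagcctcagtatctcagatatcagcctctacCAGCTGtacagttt
Pgam2 and Ppp1r3a, which moved in opposite directions, each hold 1 MEF2 match and 1 CAGCTG. Pygm holds 2 CAGCTG matches and 1 ACGTG, and Tpi1 holds none of the 4 motifs in this window. Promoters were found for 34 of the 35 genes; the entry for Slc2a4 is missing. ACGTG lay in 36.5% of their 52 windows and in 16.6% of all 32851 windows, CACGTG in 11.5 and 6.02%, CAGCTG in 21.2 and 13.0%, and the MEF2 consensus in 5.77 and 2.92%. At least 1 window with ACGTG was found for 3 of the 6 genes that fell (Ldha, Pgk1 and Slc16a3), 1 of the 3 that rose and 11 of the other 25 with a promoter. A match is a description of the letters and no evidence of binding.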

How the data were processed

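Quadriceps RNA of 10 mice was measured by RNA sequencing, with groups taken from the titles. Each table lists 33984 RefSeq transcripts with 3 measures, per the file headers. The deposited count values are whole and not normalized by the authors; for the 13 of the 35 genes with several transcripts, the runner-up held 87.9 to 100.0% of the kept count. The deposited FPKM values, scaled by the authors per kilobase and library total, served to recover transcript lengths. As an alternative, ratios used the deposited TPM values, which the authors scaled to 1000000. The submitters' processing notes name, with no role or order, build GRCm39 and featureCounts, STAR, Subread 2.0.1, Salmon 1.5.2, DESeq2 1.28.0, bedtools 2.30.0, StringTie 2.2.1, Picard 2.27.4, Trim Galore 0.6.7 and SAMtools 1.15.1; no strandedness is stated there.

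For each symbol the transcript with the largest total was kept, which left 52.6 to 54.7% of the transcript counts. Genes were filtered with filterByExpr, scaled with TMM and tested with the quasi-likelihood F test of edgeR 4.0.16 (R 4.3.3, robust), with Benjamini-Hochberg adjustment over 13880 genes and a threshold of 0.05. SE is the log2 fold change divided by the root of the F statistic. Ratios were tested by exact permutation of samples. The smallest chi-square per degree of freedom between any pair of libraries was 5.59, so none is a repeat of another within sampling noise. The length trend was fitted per library with natural splines (3 inner knots), centred and entered as an offset. Every called gene of the 35, the genes of each ratio, and of the other pathway genes the 10 with the smallest p (at most 3 per list) are named. Pdk4 and Pdk1 were named outside this rule, after their values were seen. Alternatives were other scalings and filters, DESeq2 1.42.0, limma-voom (limma 3.58.1), replicate and animal-number blocks, summed isoforms and libraries left out. The script was tested on simulated data. The genes and lists were chosen with earlier results of these data known, and the split at 2500 bases was chosen after values were seen.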

Additional observations from a re-analysis of the deposited data

Results flagged for a closer look

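Of 70 groups of 5 libraries tested (35 genes, each in Control and 1C-MIM), 2 held a library far from the other 4; chance flags about 1 in 20 groups. For Pgam2, Control 5 was the highest Control with 2583 CPM, and the next was at 2156 CPM. Without Control 5 Pgam2 fell by 0.29 (edgeR adjusted p = 0.0127). For Pfkl, Control 2 was the highest Control with 14.1 CPM against 12.1 CPM for the next, and the log2 fold change without it was 0.05 (adjusted p = 0.686).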

How the results depend on the processing

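The directions of the 9 called genes held under each alternative run, and of 198 values for them 160 stayed past the threshold and 38 did not. Among the 26 other genes, 21 of 571 values passed the threshold and 29 changed sign, none of them past it. With library totals as scaling 1 of the 35 was higher and 10 lower (606 and 2896 over all genes; median of the 35 -0.030). Without Control 1 and Control 5 together, 3 were lower (832 higher and 976 lower over all genes; median -0.032). With the length trend removed 5 were higher, and the Ldha/Ldhb difference of -0.33 passed. Leaving out single libraries gave 2 to 5 higher and 2 to 5 lower of the 35, 739 to 1558 higher and 941 to 1885 lower over all genes, and a median of 0.0077 to 0.053. A count moved by over 1.5 times without Control 2 (5 of the 35 higher), Control 4 (902 higher over all genes), 1C-MIM 3 (2 of the 35 lower; 843 and 1057 over all genes) and 1C-MIM 4 (2 lower; 739 and 941). The causes of these shifts were not tested, and the runs with libraries left out also had fewer libraries.

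Replicate numbers are shared by the groups, but same-numbered libraries correlated from -0.08 to 0.39 in their deviations. Of 5 Control libraries, 2 correlated best with their own number, so the numbers were not used as pairs in the main fit. These values do not settle whether same-numbered libraries share a source of variation. With the replicate block 1932 genes were higher and 1965 lower over all genes, and 5 of the 35 were higher, the main 3 with Hk2 (adjusted p = 0.0227) and Pfkfb2 (0.0081). Sign flips within numbers (replicate block) cannot give a p below 0.0625 and passed none of the ratios (-0.34 for Hk1/Hk2, 0.27 for Pfkm/Pfkp, 0.31 for Eno3/Eno1).

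Leaving out single libraries gave log2 differences of -0.40 to -0.30 for Hk1/Hk2, 0.24 to 0.32 for Pfkm/Pfkp, 0.26 to 0.36 for Eno3/Eno1, -0.32 to -0.16 for Ldha/Ldhb and -0.22 to -0.12 for Slc16a3/Slc16a1. Signs changed with library totals for Gpi1 (-0.030), Pfkm (-0.022), Aldoa (-0.042), Ldhb (-0.015), Slc2a4 (-0.028), Gbe1 (-0.013) and Ugp2 (-0.025); with the length trend removed for Gapdh (0.043), Eno3 (0.063) and Phka1 (-0.015); and without Control 1 and Control 5 for Pfkfb4 (-0.068), Ldhb (-0.066), Gbe1 (-0.059) and Ppp1r3c (0.27). Pfkl was at 0.00021 with DESeq2 size factors, 0.0011 with no filter and 0.00026 with DESeq2, and Ppp1r3c at 0.014 with limma-voom and 0.013 with the replicate block. With single libraries left out, Pfkl ranged from -0.045 to 0.050, Ppp1r3c from -0.12 to 0.19, Ldhb from -0.029 to 0.12, Gbe1 from -0.0013 to 0.13 and Slc16a1 from -0.070 to 0.012. Aldoc, with 9 to 38 reads per library, is limited by depth.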

Other observations

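Pyruvate kinase of muscle is made in an M1 and an M2 form, which use alternative exons of Pkm. The deposited tables hold a RefSeq transcript for each, and since both share the other exons their counts are nearly the same. The M1 transcript held more reads than the M2 transcript in every library, by 1.66, 1.38, 1.37, 1.26 and 1.55% in Control 1 to 5 and by 1.35, 1.2, 1.26, 1.01 and 1.31% in 1C-MIM 1 to 5. The ranges overlapped, and the excess was not tested. It gives a minimum for M1 reads and not the share of each form.

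Control 1 was the library with the most Tubb3 (10.3 CPM), Stmn2 (8.35 CPM), Nefl (1.13 CPM) and Snap25 (0.993 CPM), neuronal genes. It stood at an end of the Control range for several of the 35 genes. For example, it was the highest Control for Pfkfb3 (309 CPM) and Ppp1r3c (707 CPM). It was the lowest for Pfkm (4778 CPM), Ldhb (74.8 CPM), Slc2a4 (531 CPM) and Gys1 (550 CPM). Every gene has some library at each end, and a link to the neuronal genes was not tested.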
